A study of Rattus norvegicus with 20 samples.

Results

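Gene expression in the kidneys of rats labelled RM was compared with that in the kidneys of rats labelled HS. The members of the comparison were chosen by their disease label alone, which gave 6 libraries of RM and 5 of HS, 11 of the 20 libraries of the series. The series concerns kidney injury after trauma. The labels do not spell out either abbreviation, which are read here as rhabdomyolysis (the breakdown of skeletal muscle) and haemorrhagic shock (circulatory failure from blood loss). The other 9 libraries, 6 of Sham and 3 of RM-HS, entered no test here, and their values are given only as a description. Every RM and HS library came from a kidney frozen in liquid nitrogen and is labelled with an injury, so neither group is an uninjured control. The sources used here give no strain, age or sex, and neither how an injury was produced nor when the kidney was taken. Whether the libraries come from different animals is not said anywhere in the labels. A p-value here therefore measures the spread among these libraries only, which may be technical in part. The design text of the series counts 5 RM samples, whereas the labels give 6, and all 6 were used.

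Both conditions are known causes of acute kidney injury. In rhabdomyolysis, myoglobin released from muscle is filtered by the glomerulus and taken up by the proximal tubule, where its haem and iron can oxidise lipids and proteins. Haem removes the repressor BACH1 from DNA, oxidants release the activator NRF2 from its inhibitor KEAP1, and both steps raise transcription of haem oxygenase and of genes for glutathione and thioredoxin. In haemorrhagic shock the kidney receives too little blood, and the tubule is deprived of oxygen and fuel until flow returns.

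Per library, 48.8 to 109.9 M reads were assigned to rows of the table. Reads of the mitochondrial genome took 48.3% ± 1.65 (SD, n = 6) in RM and 49.4% ± 5.24 (SD, n = 5) in HS, which differed by less than the spread between libraries (exact permutation test, two-sided, p = 0.671, where the smallest p the design allows is 0.00433). The remaining reads numbered 38.2 to 51.9 M per RM library and 25.3 to 50.1 M per HS library. RM 1 and HS 1 to HS 3 come from libraries whose names start with R, and the other RM and HS libraries from names starting with S, a letter that the labels do not explain. The first principal component held 25% of the variance and separated all RM from all HS libraries, whereas the third, with 11.1%, set RM 1 apart from the other 10 libraries. Genes of the kidney tubule were abundant in every library, with Lrp2 (megalin, which takes up filtered protein) at 80407 to 111566 in RM and 75675 to 107044 in HS. Levels are normalized read counts, and differences are RM minus HS on the log2(value + 1) scale with their standard error, so that positive values are higher in RM. A gene is called when its adjusted p in limma is under 0.05.

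Of 15954 rows tested, 4065 (25.5%) were called, of which 1996 (12.5%) were higher in RM and 2069 (13%) were higher in HS. The counts were balanced, but the large differences were mostly higher in RM. Of the called rows, 940 (5.89% of rows tested) differed by at least 2-fold, 576 of them higher in RM and 364 higher in HS. At 8-fold or more the counts were 49 and 14, and at 16-fold or more they were 17 and 2. Typical differences were small, with a median size of 0.60 (log2) over called rows and 0.31 over all rows. The lowest library of one group stood above the highest of the other in 2273 rows (14.2%), of which 963 (6.04%) were higher in RM and 1310 (8.21%) were higher in HS. The median difference over all tested rows was 0.02. Counts of called list members below are to be read beside the 25.5%, 12.5% and 13% of all rows.

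**Figure D1:**
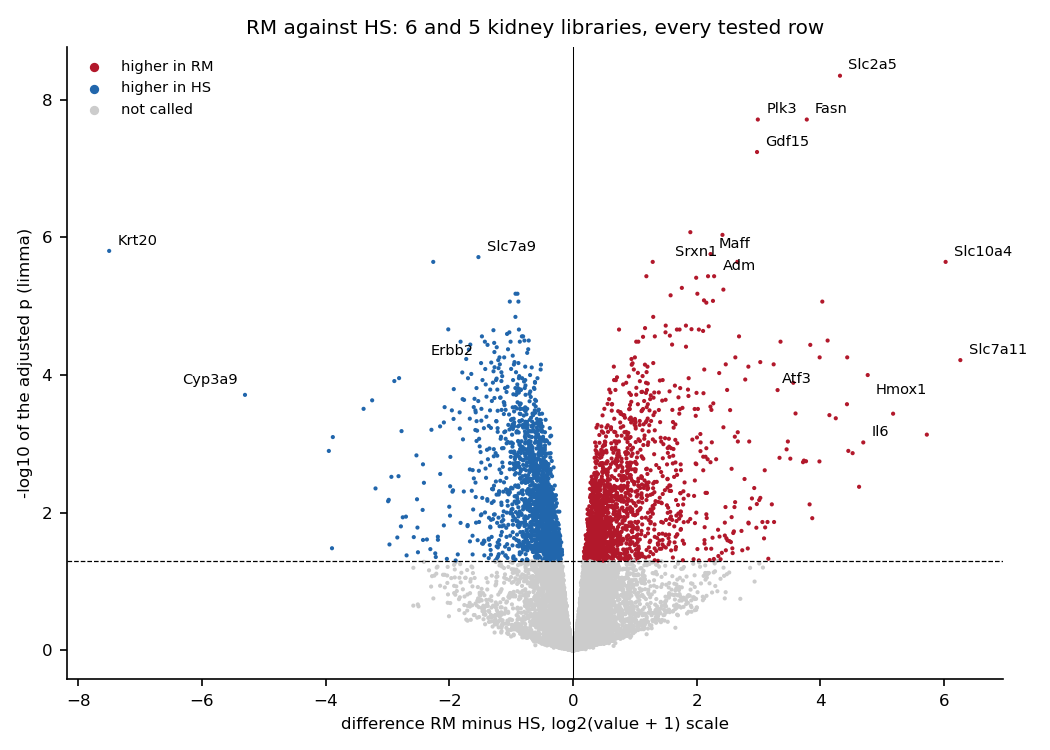
Difference RM minus HS on the log2(value + 1) scale (x axis) against the −log10 of the adjusted p in limma (y axis). Drawn are the 12967 tested rows with a symbol, with called rows in red (higher in RM) or blue (higher in HS). A dashed line marks an adjusted p of 0.05. Over all 15954 tested rows, with or without a symbol, 17 were called at 16-fold or more higher in RM and 2 higher in HS. These 2, Krt20 and Cyp3a9, lie far left.

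The genes with the largest differences higher in RM mixed defence against oxidants, signals of inflammation and sugar transport. Slc7a11 carries cystine into cells for glutathione synthesis (GSRG0016319, rn6 chromosome 2, 139453774 to 139528162). It stood at 651 to 9529 (median 6086) in RM, and at 49.02, 166, 85.7, 29.4 and 28.8 in HS 1 to HS 5. The difference was 6.26 ± 0.65 (limma adjusted p = 6.1e-05), and RM 1, the lowest RM library, was still above every HS library. Hmox1, haem oxygenase 1, opens the haem ring and frees its iron (GSRG0037266, rn6 chromosome 19, 14508634 to 14515453). Its level was 109354 to 172376 (median 164608) in RM and 2468, 36015, 4966, 3156 and 4316 in the HS libraries in order. HS 2 stood above the other 4 HS libraries, yet the groups did not overlap, and the difference was 4.76 ± 0.53 (limma adjusted p = 1.0e-04), or 5.43 without HS 2. Slc2a5, the fructose transporter GLUT5 (GSRG0024496, rn6 chromosome 5, 167142182 to 167174206), had the smallest adjusted p of all rows. It stood at 18042 to 30384 (median 25047) in RM and at 1381, 1338, 1019, 999.9 and 1349.7 in HS, a difference of 4.32 ± 0.14 (limma adjusted p = 4.5e-09). Here the spread within either group was small beside the gap between them.

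Signalling molecules made up much of the rest of the largest differences. Il6, the cytokine interleukin 6, was at 306 to 2183 (median 578) in RM and at 33.2, 17.01, 114, 54.8 and 3.2 in HS, a difference of 4.69 ± 0.75 (limma adjusted p = 9.6e-04), or 4.01 without HS 5, the lowest library. Sele, the adhesion molecule E-selectin that endothelium displays to leukocytes, ranged over 109 to 482 in RM and 3.61 to 43.2 in HS (4.43 ± 0.58). Tac1, the precursor of substance P, ranged over 53.97 to 175 and 0 to 18.1 (4.52 ± 0.77). Fgf23, a hormone that lowers phosphate reabsorption, ranged over 34.9 to 336 and 1.6 to 11.7 (4.14 ± 0.58), and Rgs16, a brake on G protein signalling, over 351 to 505 and 12.8 to 65.8 (4.03 ± 0.32). None of these 5 genes had overlapping groups, as the choice of the largest differences required. Slc10a4, of the bile acid transporter family, had no read in any HS library and 25.4 to 91.9 in RM. Against a floor of 3 reads over the HS group it was at least 105-fold higher in RM (limma adjusted p = 2.3e-06).

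Some of the largest differences were of low genes and uneven between libraries. Mmp10, the metalloproteinase stromelysin 2, was at 8.47 in RM 1 but at 112 or more in the other 5 RM libraries, against 3.32, 0, 7.22, 0 and 0 in HS (5.72 ± 0.88, and 6.42 without RM 1). Spata48 was at 6.35 in RM 1, at 42.7 to 99.9 in the others, and in HS had 4 reads in all, in 1 library. For both, RM 1 was the lowest RM library. Hephl1, a relative of the iron oxidase hephaestin, was called as well (3.82 ± 0.88, limma adjusted p = 0.0076, and 3.04 without HS 5), with 36.6 to 222 in RM and 0 to 35.3 in HS. The others among the 15 largest were Lexm (4.12 ± 0.39), Kctd4 (3.99 ± 0.41) and Aknad1 (3.84 ± 0.37).

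**Figure D2:**
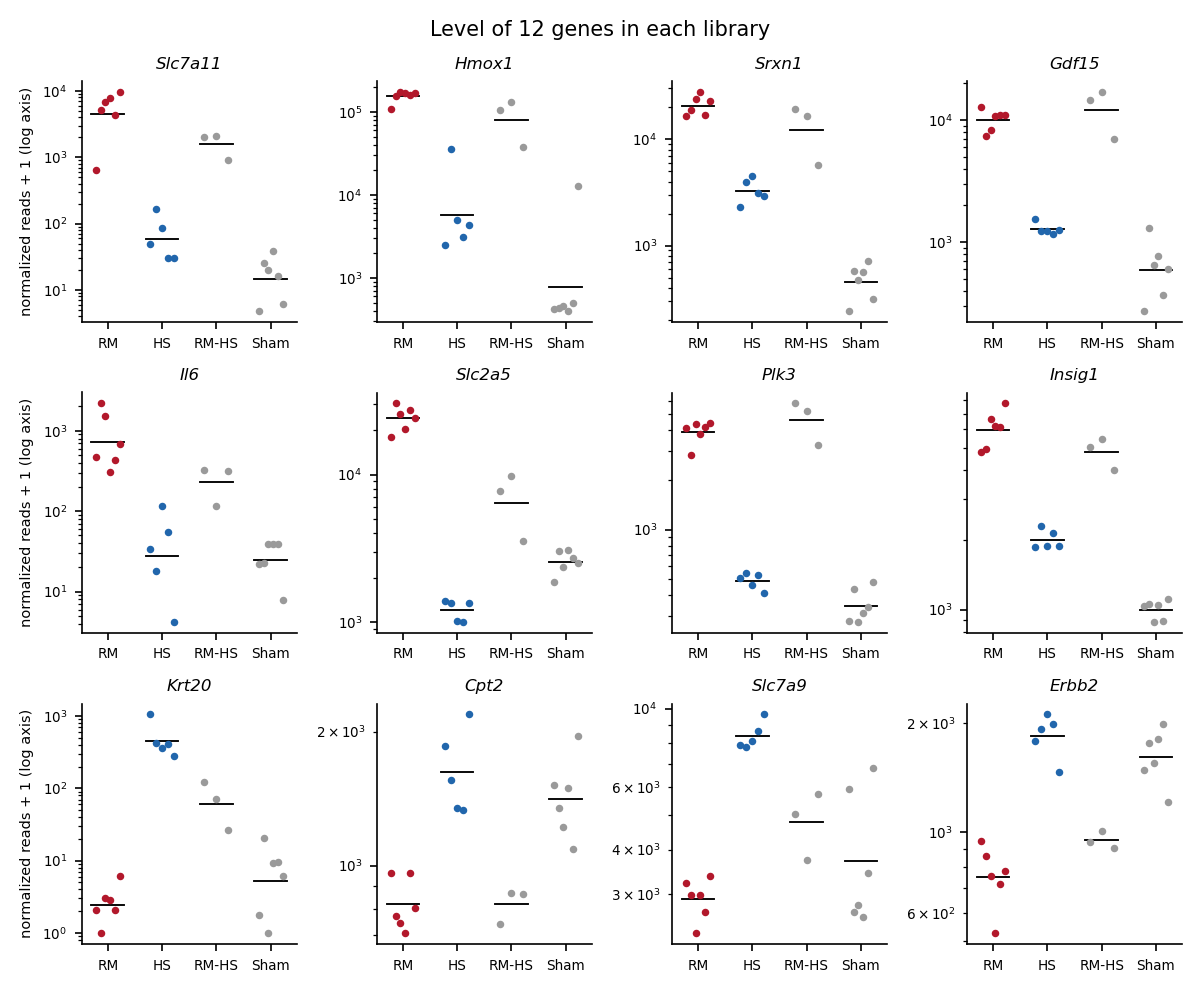
Normalized reads + 1 (y axis, log scale, a scale of its own for each gene) of 12 genes in each library of RM (red), HS (blue), RM-HS and Sham (grey), each point a library and each bar the mean of log2(value + 1). In all 12 genes the RM and HS libraries do not overlap, and for Slc7a11 and Hmox1 single libraries, RM 1 and HS 2, lie nearest the other group.

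Higher in HS, the largest difference by far was in Krt20, a keratin of epithelial cells whose mRNA appears in injured tubules (GSRG0006812, rn6 chromosome 10, 87342502 to 87351063). It stood at 1050.2, 417, 358, 410.4 and 275 in HS 1 to HS 5 and at no more than 5.07 in RM, where 10 reads were counted over the 6 libraries together. The difference was -7.50 ± 0.46 (limma adjusted p = 1.6e-06), a value that depends on the pseudocount because RM lay so near 0. Cyp3a9, a cytochrome P450, was at 96.4, 76.0, 180.4, 134 and 41.6 in HS and had no read in 3 of the 6 RM libraries (-5.30 ± 0.66, limma adjusted p = 1.9e-04). In both genes the lowest HS library stood above the highest RM library, which the choice of the largest differences required.

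Receptors and regulators followed. Adra2b, the alpha-2B adrenergic receptor, was at 2958, 2771, 2111, 2425 and 2944 in HS and 159 to 655 (median 432) in RM (-2.89 ± 0.34, limma adjusted p = 1.2e-04). Il22ra1, the receptor subunit for interleukin 22, was at 137 to 252 in HS and 15.5 to 61.4 in RM (-2.81 ± 0.32). Cyp24a1, which inactivates vitamin D, was at 838 to 2267 and 77.8 to 453 (-2.53 ± 0.44), and Tp73, a relative of p53, at 29.8 to 103 and 2.79 to 24.9 (-2.82 ± 0.55). Groups did not overlap for any of these 4, again by the choice made. Also among the 15 were Cldn22 (-3.88 ± 0.61), Serpinb5 (-3.39 ± 0.45), Jakmip2 (-2.77 ± 0.42), Tril (-2.43 ± 0.44) and the BMP antagonist Grem1 (-2.98 ± 0.67). Grem1 reached 1357 in RM 1, near the lowest HS library at 1577, and was at 51.97 in RM 6. Bpi, a protein that kills bacteria, was called at -2.84 ± 0.82 (limma adjusted p = 0.023), but not without HS 2 (adjusted p = 0.057) nor without HS 4 (adjusted p = 0.058), and was -2.16 without RM 3. Acta1, the actin of skeletal muscle, was at 159, 111, 28.9, 97.9 and 65.6 in HS and 2.02 to 23.9 (median 12.3) in RM (-2.94 ± 0.57, limma adjusted p = 0.003). It was the 1 called gene of 7 tested skeletal muscle genes, whose summed level was 274 to 572 in RM and 474 to 601 in HS, and the myoglobin gene Mb had no read in any of the 11 libraries.

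Genes of haem breakdown and iron handling split by direction. Of 31 members tested, 8 were called higher in RM and 4 higher in HS, against 12.5% and 13% of all rows, and their median difference was 0.14 beside 0.02 for all rows. Besides Hmox1, Bach1, the haem-sensing repressor of Hmox1, was at 5733 to 10587 in RM and 2110.4, 3443, 3031, 2588 and 2477 in HS (1.6 ± 0.16, limma adjusted p = 3.6e-05). Slc48a1, which carries haem out of endosomes, was at 4234 to 5795 and 2213 to 3227 (0.98 ± 0.11), and Ftl1, the light chain of the iron store ferritin, at 446045 to 630408 and 258863 to 385466 (0.94 ± 0.16). The heavy chain Fth1 had groups that did not overlap but did not pass (0.55 ± 0.21, limma adjusted p = 0.065), although it passed without HS 3 (0.62, adjusted p = 0.048) and in both count tests. The 4 members called higher in HS, a share of the list close to that of all rows, were Tfrc, Slc39a14, Alas1 and Ireb2. Tfrc, the transferrin receptor, was at 2679, 2012, 1858, 1982 and 2129 in HS and 1003 to 1302 (median 1081) in RM (-0.92 ± 0.10, limma adjusted p = 9.1e-05). Slc39a14, a transporter of zinc and non-transferrin iron, was higher in HS (-0.87 ± 0.16), as were Alas1, the first enzyme of haem synthesis (-0.70 ± 0.16), and Ireb2, which stabilises Tfrc mRNA when iron is low (-0.43 ± 0.11). The haptoglobin gene Hp, whose protein binds free haemoglobin, was higher in RM (1.64 ± 0.43, limma adjusted p = 0.016), as was the iron transporter of phagocytes Slc11a1 (0.61 ± 0.13).

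In the cystine, glutathione and ferroptosis list, 13 of 26 tested members were called higher in RM and 1 higher in HS, with a median difference of 0.42. Supply and synthesis of glutathione moved together. Slc3a2, the partner chain of Slc7a11, was at 14747 to 25079.6 in RM and 12613 to 14310.0 in HS (0.70 ± 0.12). Gclm and Gclc, the regulatory and catalytic chains of the enzyme that makes the first bond of glutathione, differed by 1.02 ± 0.13 and 0.59 ± 0.13, and Gsr, which returns it to its reduced form, by 0.47 ± 0.09. The neutral amino acid carriers Slc1a5 and Slc1a4 were higher in RM by 1.77 ± 0.24 and 1.32 ± 0.18. Chac1, which breaks glutathione down, was also higher in RM (2.46 ± 0.58, limma adjusted p = 0.0083), with wide ranges of 164 to 1674 in RM and 48.03 to 198 in HS. Gpx4, which reduces lipid peroxides in membranes, did not pass (0.09 ± 0.09, limma adjusted p = 0.49). The single member called higher in HS was Lpcat3, which puts polyunsaturated fatty acids into membrane lipids (-0.36 ± 0.09).

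Genes of the NRF2, thioredoxin and NADPH list were mostly higher in RM. Of its 28 tested members 19 were called higher in RM and 1 higher in HS, with a median of 0.62. Srxn1, sulfiredoxin, which repairs overoxidised peroxiredoxins, was at 16421 to 27522 (median 20906) in RM and 2326, 3947, 4462, 3144 and 2946 in HS (2.66 ± 0.18, limma adjusted p = 2.3e-06). Maff, a small MAF protein that pairs with NRF2 or BACH1 on DNA, was at 8357 to 12866 (median 12307) and 2234, 2783, 2380.3, 2673 and 1899 (2.22 ± 0.14, limma adjusted p = 1.8e-06). For both genes the lowest RM library stood well above the highest HS library. Nqo1, a quinone reductase, was at 1618 to 4644 and 353 to 896 (2.27 ± 0.29), with RM 1 lowest at 1618. Nfe2l2, which encodes NRF2 itself, differed by only 0.74 ± 0.07 but without overlap (limma adjusted p = 2.2e-05). The others included Osgin1 (1.86 ± 0.22), Txnrd1, thioredoxin reductase (1.32 ± 0.21), Ephx1, epoxide hydrolase (1.32 ± 0.20), Mafg (1.06 ± 0.10), Prdx1, a peroxiredoxin (0.73 ± 0.10) and Pgd, an enzyme that yields NADPH (0.93 ± 0.14). The list median was 0.86 within the libraries named S and 0.17 within those named R, which hold RM 1 alone of its group. Txnrd1 differed by 1.77 within S and 0.33 within R, and Pgd by 1.23 and 0.17.

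NRF2 with a small MAF protein binds the antioxidant response element, searched here as TGACNNNGC on both strands in the 250 bases before and 50 after each start in the RefSeq promoter table (GRCr8). Of 25 promoters matched to the NRF2, thioredoxin and NADPH list, 9 (36%) held a match, as did 14.3% of the 10181 promoters of tested genes and 12.2% of all 27457 promoters in the table. Among called genes the shares were 16.5% for those higher in RM and 13.1% for those higher in HS. For genes called at 4-fold or more they were 12% of 100 promoters higher in RM and 9.68% of 31 higher in HS. Within the list, 5 of the 9 genes with a match and 13 of the 16 without one were called higher in RM. The cystine, glutathione and ferroptosis list went the other way, with a match in 1 of 21 promoters (4.76%), that of Gclm. Gclm and Prdx1, the latter from the NRF2 list, are shown because both were higher in RM without overlap and each held 1 match, in capitals, in the 250 bases before its start. That of Gclm begins 172 bases before the start (GRCr8 chr2:213031885-213032134, plus strand), and that of Prdx1 135 bases before it (GRCr8 chr5:135383656-135383905, plus strand). The Prdx1 window also held 2 matches to the AP-1 site TGANTCA, 1 of which overlaps the capitals.
Gclm: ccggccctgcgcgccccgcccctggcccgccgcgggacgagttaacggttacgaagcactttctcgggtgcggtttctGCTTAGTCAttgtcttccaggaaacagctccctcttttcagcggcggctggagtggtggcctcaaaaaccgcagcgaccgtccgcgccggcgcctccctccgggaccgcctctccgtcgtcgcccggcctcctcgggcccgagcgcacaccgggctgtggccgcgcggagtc
Prdx1: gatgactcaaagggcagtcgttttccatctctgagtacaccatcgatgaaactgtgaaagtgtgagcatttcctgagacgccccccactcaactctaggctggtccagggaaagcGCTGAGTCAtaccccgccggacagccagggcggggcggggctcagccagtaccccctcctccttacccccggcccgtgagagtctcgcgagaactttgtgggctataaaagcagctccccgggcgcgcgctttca

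Immediate early genes, transcribed within minutes of a stimulus from factors already present in the cell, were mostly higher in RM. Of 12 tested AP-1 subunits and partners 9 were called higher in RM and 0 higher in HS, with a median of 1.47. Atf3, a stress-induced factor of this family, was at 10314 to 27731 (median 13346) in RM and 877, 1981, 2282, 2679.5 and 799 in HS (3.24 ± 0.34, limma adjusted p = 7.0e-05). Fos was at 2560.5 to 14096 (median 6325) and 657, 933, 1094, 1446 and 642 (2.66 ± 0.41), and Jun at 38842 to 79632 (median 50658) and 14239, 18833, 24884, 22324 and 14419 (1.5 ± 0.19). In none of these 3 did the groups overlap. Fosl1 (2.31 ± 0.41), Fosl2 (1.72 ± 0.24), Junb (1.45 ± 0.31) and Mafk (0.70 ± 0.12) passed as well.

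Other immediate early genes gave 16 calls higher in RM and 2 higher in HS of 23 tested, with a median of 1.29. Zfp36, which destabilises cytokine mRNAs, was at 18078 to 28689.6 (median 24848) in RM and 5247, 5097, 7131, 5108 and 3966 in HS (2.18 ± 0.15, limma adjusted p = 3.7e-06). Myc was at 4814 to 9264 (median 6561) and 1780.5, 1923, 1828, 1564 and 1377 (1.99 ± 0.14, limma adjusted p = 3.9e-06). Klf10 was tight within both groups, at 1999.9 to 2512 against 851 to 1052 (1.29 ± 0.08, limma adjusted p = 2.3e-06). Egr1 (2.54 ± 0.34), Egr2 (2.11 ± 0.26), Btg2 (1.73 ± 0.23), Ier2 (1.30 ± 0.18), Klf6 (1.65 ± 0.26) and Nr4a1 (0.95 ± 0.21) were also called. The 2 called higher in HS were Klf2, a factor of endothelial cells that was not called without HS 2 (adjusted p = 0.053) or without HS 5 (adjusted p = 0.055), and Ccn2, connective tissue growth factor, at 25713 to 35759 in HS and 9679.9 to 23328 in RM (-0.81 ± 0.19, limma adjusted p = 0.009).

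Feedback genes of MAP kinase signalling followed, with 10 of 17 tested called higher in RM and 1 higher in HS (median 0.77). The phosphatase gene Dusp1 was at 8502 to 15318 (median 13695) in RM and 4447, 4245, 4308, 5434 and 4203 in HS (1.49 ± 0.14, limma adjusted p = 2.4e-05). Dusp8 (1.18 ± 0.17), Dusp6 (1.18 ± 0.22), Spry2 (1.10 ± 0.21), Spry4 (0.75 ± 0.16) and Phlda1 (1.53 ± 0.30) were higher in RM too. Etv5, an ETS factor, was the 1 member called higher in HS (-0.64 ± 0.16).

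In the integrated stress response ATF4 raises genes for amino acid supply and for recovery of translation, and most of these were called higher in RM. Of 27 tested members 16 were called higher in RM and 1 higher in HS, with a median of 0.60. Gdf15, a secreted stress signal, was at 7413 to 12855 (median 10854) in RM and 1548, 1226, 1239, 1164 and 1249 in HS (2.97 ± 0.13, limma adjusted p = 5.8e-08). All 5 HS libraries lay close together, far below the lowest RM library. Atf4 was at 54135 to 84665 and 24698 to 36259 (1.20 ± 0.13), and Slc7a5, a carrier of large amino acids, at 655 to 1407 and 137 to 378 (2.36 ± 0.26). Ddit3, the factor CHOP, differed by 1.62 ± 0.23, Ppp1r15a, which restores translation, by 1.70 ± 0.22, and Trib3, a pseudokinase, by 1.98 ± 0.28. Sesn2, a sestrin, was the 1 member higher in HS, at 3660.0, 4587, 5544, 5759 and 3599 in HS and 2055 to 2768 (median 2253) in RM (-0.95 ± 0.14, limma adjusted p = 4.9e-04). The chaperones of the endoplasmic reticulum did not share this, with 2 of 21 tested called higher in RM and 1 higher in HS (median 0.10). These 14.3% stand beside 25.5% of all rows. The main chaperone, Hspa5, was not called (0.30 ± 0.34, limma adjusted p = 0.55).

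ATF4 pairs with C/EBP proteins on composite sites, searched as TGATGNAA on both strands in the same windows. Of 26 promoters matched to the list 6 (23.1%) held a match, beside 2.29% of tested promoters and 3.82% of all. Of these 6 genes 3 were called higher in RM, and of the 20 without a match 13 were. Trib3 and Chac1 are shown because both were called and each held 1 match, in capitals, before its start. It begins 21 bases before the start in Trib3 (GRCr8 chr3:161275534-161275783, minus strand) and 167 bases before it in Chac1 (GRCr8 chr3:126795881-126796130, plus strand).
Trib3: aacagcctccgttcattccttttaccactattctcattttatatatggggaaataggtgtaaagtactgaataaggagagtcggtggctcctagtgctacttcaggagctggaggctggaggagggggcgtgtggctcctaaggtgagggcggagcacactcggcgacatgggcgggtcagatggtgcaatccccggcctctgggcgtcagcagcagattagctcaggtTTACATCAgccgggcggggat
Chac1: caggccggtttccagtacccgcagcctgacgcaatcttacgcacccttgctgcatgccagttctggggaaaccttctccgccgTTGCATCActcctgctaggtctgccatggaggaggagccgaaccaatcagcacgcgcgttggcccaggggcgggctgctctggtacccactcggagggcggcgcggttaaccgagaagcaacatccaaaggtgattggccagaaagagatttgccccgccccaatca

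Targets of p53 split by direction, 5 called higher in RM and 4 higher in HS of 19 tested. The 47.4% called stand beside 25.5% of all rows. Plk3, a stress-activated kinase, was at 2815 to 4429 (median 4134) in RM and 507, 548, 461.8, 529.8 and 415 in HS (2.99 ± 0.12, limma adjusted p = 1.9e-08). Gadd45a, which acts in growth arrest, was at 36024 to 57867 and 9834 to 17971 (1.83 ± 0.16), and the cell cycle inhibitor Cdkn1a at 2373 to 5330.1 and 1683 to 2328 (0.82 ± 0.21). Plk2 (1.49 ± 0.23) and the nuclease gene Aen (1.25 ± 0.16) were higher in RM as well. Tp53inp1, which promotes p53 activity and autophagy, was at 4851, 4101, 2256, 3180.0 and 3324 in HS and 836 to 1475 (median 1179.7) in RM (-1.59 ± 0.20, limma adjusted p = 2.2e-04). Sesn1 (-0.91 ± 0.21) and Phlda3 (-0.90 ± 0.23) were higher in HS too, so both sestrins named here went the same way.

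Of 28 classic markers of tubular injury tested, Gdf15 and Cxcl1 among them, 6 were called higher in RM and 1 higher in HS, with a median of 0.28. That is 25% of the list, beside 25.5% of all rows. The fit of all 4 groups gave 3 and 0. Havcr1, which encodes KIM-1, was at 923 to 9645 (median 6071) in RM and 7146, 16975, 29197, 14747 and 4719.9 in HS (-1.62 ± 0.63, limma adjusted p = 0.075). Of the alternatives run it passed only without HS 5 (-1.95, adjusted p = 0.048). Lcn2, which encodes NGAL, was at 293 to 18242 (median 3821) and 270.0, 7532, 11688, 14565 and 4180.4 (-0.96 ± 1.23, limma adjusted p = 0.6), so that its range within either group exceeded the difference between them. Spp1, osteopontin, was not called (0.27 ± 0.40, limma adjusted p = 0.66). Sox9, a factor of tubule repair, was higher in RM (0.51 ± 0.13, limma adjusted p = 0.016), with overlap. Among the 8 keratins tested, Krt8 was higher in HS (-0.34 ± 0.07) and Krt18, its usual partner, higher in RM (0.58 ± 0.15).

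Most markers of neutrophils were called higher in RM, 9 of 14 tested called higher in RM and 0 higher in HS (median 1.67), and 6 without HS 2. Among the libraries named S alone (5 RM against 2 HS), 3 were called higher in RM and 0 higher in HS, with a median of 1.97. Cxcr2, the chemokine receptor of neutrophils, was at 53.3 to 126 (median 94.0) in RM and 20.8, 30.6, 50.5, 26.4 and 14.4 in HS (1.74 ± 0.32, limma adjusted p = 0.002). Il1b (1.74 ± 0.33), Mmp8, a collagenase of their granules (2.11 ± 0.40), and Il1r2 (1.25 ± 0.24) did not overlap either. The summed level of the 14 markers was 7086 to 26762 in RM and 2610 to 12111 in HS, and 2 listed markers, Elane and Cxcr1, had no read in any of the 11 libraries. Red cell RNA moved the same way. Of 8 red cell genes 7 were called higher in RM, and 2 among the libraries named S alone (median 1.46 there). Their summed level was 387762 to 1046979 in RM and 88709 to 489527 in HS. Alas2, of haem synthesis in red cell precursors, differed by 1.53 ± 0.37 (limma adjusted p = 0.01). Copies of the alpha globin gene are nearly identical and their reads can be split between them. Blood held in the tissue carries both kinds of RNA, and its part in the neutrophil result was not tested. In bulk tissue more cells of a type and more RNA per cell cannot be told apart.

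Macrophage genes gave 9 calls higher in RM and 1 higher in HS of 19 tested (median 0.45). That is 52.6% of the list, beside 25.5% of all rows. Among the libraries named S alone the macrophage genes gave 2 higher in RM and 1 higher in HS (median 0.36). Adgre1, the F4/80 antigen, was at 774 to 1706 (median 1169.8) in RM and 719, 688, 492, 507 and 415 in HS (1.05 ± 0.21, limma adjusted p = 0.004). The complement genes C1qa (0.53 ± 0.08) and C1qc (0.53 ± 0.12) and the growth factor receptor Csf1r (0.59 ± 0.14) differed less, without overlap. Mertk, a receptor for dying cells, was at 2204, 2203, 2441, 2283 and 2594 in HS and 1177 to 1756 (median 1517) in RM (-0.64 ± 0.10, limma adjusted p = 6.3e-04). Il34, a ligand of CSF1R, was higher in HS as well, at 2382, 1912, 2384, 1730.5 and 1708 against 595 to 928 (median 846) (-1.32 ± 0.14, limma adjusted p = 6.6e-05).

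Of 30 interleukins and growth factors 11 were called higher in RM, 1, Il34, higher in HS, and 18 were not called. Lif, of the interleukin 6 family, was at 237 to 1047 (median 619.6) in RM and 54.8, 26.1, 117, 28.4 and 56.0 in HS (3.56 ± 0.42, limma adjusted p = 1.3e-04), and Socs3, the inhibitor that this family induces, at 4904 to 13914 (median 8625) and 621, 1058, 4288, 1636 and 570.0 (2.85 ± 0.45, limma adjusted p = 9.3e-04). The receptor genes Il6r (1.01 ± 0.19), Il6st (0.45 ± 0.12) and Osmr (0.71 ± 0.17) were higher in RM as well. Of 17 chemokines 5 (29.4%) were called, all higher in RM. Of all rows 25.5% were called, and 12.5% were called higher in RM. Ccl2, which draws monocytes, was at 781 to 7211 (median 1717) and 672, 159, 675, 156 and 75.2 (3.01 ± 0.67), and Cxcl1, which draws neutrophils, at 1161 to 15096 (median 1726) and 826, 190.5, 674, 203 and 104 (3.21 ± 0.74), with RM 2 the highest for both. Of 24 genes stimulated by interferon 1 was called higher in RM and 0 higher in HS (median -0.20). Of 20 metalloproteinases and plasminogen genes 8 were called higher in RM, among them Adamts4 (2.10 ± 0.37) and the urokinase receptor Plaur (1.70 ± 0.41).

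Endothelial genes gave 9 calls higher in RM and 1 higher in HS of 20 tested (median 0.41). Apart from Sele these included Icam1, an adhesion molecule (1.14 ± 0.20), Selp, P-selectin (2.16 ± 0.54), the VEGF receptor Flt1 (1.24 ± 0.17) and the general markers Pecam1 (0.52 ± 0.11), Tek (0.80 ± 0.20) and Tie1 (0.61 ± 0.17). Flt1 was at 1131 to 1930.0 in RM and 497, 577, 715, 829.5 and 645 in HS. Kdr, the other main VEGF receptor, was not called (0.27 ± 0.18, limma adjusted p = 0.3), and Esm1, endocan, was higher in HS (-0.79 ± 0.20). Of 21 vasoactive genes 7 (33.3%) were called, all higher in RM, beside 25.5% of all rows called and 12.5% called higher in RM. Among them were the bradykinin receptor Bdkrb2 at 1.61 ± 0.29 and the prostaglandin synthases Ptges at 0.87 ± 0.16 and Ptgs2 at 1.56 ± 0.32.

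In sugar metabolism, the transporter and enzymes of fructose use were higher in RM. Of 13 genes of gluconeogenesis and fructose use 7 were called higher in RM and 0 higher in HS (median 0.44). After Slc2a5 comes Khk, which phosphorylates fructose, at 19279 to 25988 (median 22957) in RM and 12812, 10677, 10682, 9788 and 12498 in HS (1.02 ± 0.10, limma adjusted p = 3.3e-05). Tkfc, which phosphorylates the glyceraldehyde formed later in the route, was at 35555 to 57378 (median 41122) and 15796, 13601, 10289.5, 11174 and 15165 (1.72 ± 0.15, limma adjusted p = 2.2e-05). None of these 3 genes had overlapping groups. Fbp1 (0.55 ± 0.12) and the glucose 6-phosphate carrier Slc37a4 (0.70 ± 0.11) were higher in RM as well, whereas the enzymes that begin and end gluconeogenesis, Pck1 (-0.49 ± 0.27, limma adjusted p = 0.2) and G6pc1 (-0.25 ± 0.26, limma adjusted p = 0.52), were not called.

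Glycolysis gave 9 calls higher in RM and 1 higher in HS of 17 tested. Gpi, glucose 6-phosphate isomerase, was at 15857 to 19418 (median 18148) in RM and 8841, 8188, 7279, 6861 and 8226 in HS (1.19 ± 0.08, limma adjusted p = 3.7e-06), and Hk2, an inducible hexokinase, at 847 to 2011 (median 1362) and 188, 163, 457, 282 and 142 (2.49 ± 0.30). Eno1 (0.56 ± 0.07), Gapdh (0.41 ± 0.09) and Pgam1 (0.31 ± 0.07) differed by less than 2-fold. Ldha, which makes lactate, was the member higher in HS (-0.37 ± 0.10, limma adjusted p = 0.016). Of 25 targets of hypoxia-inducible factor 7 (28%) were called higher in RM and 0 higher in HS, but the median was -0.01. Of all rows 25.5% were called, and 12.5% were called higher in RM. Adm, adrenomedullin, was at 887 to 1830.5 (median 1447) and 263, 254, 303, 334 and 266 (2.28 ± 0.16, limma adjusted p = 3.7e-06), Pfkfb3, an activator of glycolysis, at 2503 to 5044 and 874 to 1212 (1.83 ± 0.18), and Vegfa at 19024 to 26974 and 11651 to 17271 (0.60 ± 0.11).

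Called lipid genes went both ways. Of 22 genes of cholesterol synthesis and uptake 11 were called higher in RM and 0 higher in HS (median 0.42). Insig1, which holds the pathway back when sterols suffice, was at 4759.9 to 7747 (median 6142) in RM and 1869.5, 2294, 1873, 2138 and 1875 in HS (1.58 ± 0.12, limma adjusted p = 7.0e-06). Idi1 (1.65 ± 0.20), Cyp51 (1.12 ± 0.13), Msmo1 (0.95 ± 0.14) and Hmgcs1 (0.74 ± 0.12) of the same pathway also had no overlap. Fasn, fatty acid synthase, was in no list but shared with Plk3 the next smallest adjusted p after Slc2a5, and was named after its values were seen. It was at 9834 to 18425 (median 12340.5) in RM and 768, 1101, 1075, 892 and 813 in HS (3.78 ± 0.15, limma adjusted p = 1.9e-08). Of 26 genes of fatty acid oxidation 5 were called higher in HS and 1 higher in RM, 23.1% of the list beside 25.5% of all rows. The list median was 0.03, beside 0.02 for all rows. The member called higher in RM was Acaa1a, a peroxisomal thiolase. Its call was lost without HS 2, HS 3, HS 4, RM 1, RM 4 or RM 5 (limma adjusted p up to 0.079). Those higher in HS included Cpt2, which hands fatty acids to the mitochondrial matrix, at 1854, 1554, 1345, 1333 and 2185 in HS and 705 to 964 (median 786) in RM (-0.99 ± 0.14, limma adjusted p = 4.4e-04), and Cpt1a, which starts their import (-0.63 ± 0.15). Ppara, the receptor that controls the pathway, was not called (0.45 ± 0.23, limma adjusted p = 0.18).

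Lists of nephron markers differed in how many members were called, beside 25.5% of all rows. Of podocyte genes 5 of 12 were called, of distal convoluted tubule genes 4 of 13, of intercalated cell genes 4 of 16 and of collecting duct principal cell genes 3 of 14. Of 10 late proximal tubule genes 0 were called in limma, where 3 had an unadjusted p under 0.05, and 3 were called in DESeq2 (0 in edgeR), with Slc7a13 at 0.14 ± 0.17 and Slc5a1 at 0.12 ± 0.13. Early proximal tubule genes gave 3 calls in each direction of 19 tested, with 5 higher in RM without RM 1 and 6 without RM 3. Slc7a9, the cystine and dibasic amino acid carrier of the brush border, was at 7886, 7776, 8128, 8656 and 9632 in HS and 2326 to 3375 (median 2984) in RM (-1.53 ± 0.10, limma adjusted p = 1.9e-06), the opposite of the cystine carrier Slc7a11. Slc34a1, the phosphate carrier, was higher in RM (0.54 ± 0.12), and Slc4a4, the bicarbonate carrier, and Cubn, cubilin, higher in HS (-0.74 ± 0.18 and -0.53 ± 0.14). In the thick limb list 3 of 17 were called higher in RM, with Cldn10 at 3275 to 5452 in RM and 1638 to 2354 in HS (1.0 ± 0.14), and Umod, uromodulin, was not called (0.13 ± 0.23, limma adjusted p = 0.7).

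In the EGF family 4 of 12 genes were called higher in RM and 2 higher in HS. That is 50% of the list, beside 25.5% of all rows. The ligand Hbegf was at 1603 to 3661 (median 1951) in RM and 534, 477, 619.6, 469 and 536 in HS (2.03 ± 0.18, limma adjusted p = 2.2e-05), and the ligand Nrg1, neuregulin, was higher in RM as well (0.87 ± 0.17). The receptors Erbb2, at 1785, 1918, 2109, 1979 and 1462 in HS and 527 to 946 (median 769) in RM (-1.29 ± 0.14, limma adjusted p = 8.8e-05), and Erbb3, at 2531, 2501, 2314, 2951 and 2695 and 878 to 1414 (median 1028) (-1.27 ± 0.13, limma adjusted p = 4.6e-05), were higher in HS. Clock genes gave 5 calls higher in RM and 1 higher in HS of 16, or 37.5% beside 25.5% of all rows. Nfil3 differed by 2.24 ± 0.30, Ciart by 2.62 ± 0.41 and Bhlhe40 by 1.39 ± 0.17. The hour of sampling is not given by any source used here.

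Some lists had many small differences in 1 direction. Of 25 cytosolic ribosomal protein genes 22 were called higher in RM and 0 higher in HS, with a median of 0.30, and of 19 proteasome genes 11 were called higher in RM and 0 higher in HS, with a median of 0.25. Rpl3 was at 23872 to 27039 in RM and 18073 to 21896 in HS (0.37 ± 0.07), and Psma1 at 5803 to 6743 and 4920.5 to 5515 (0.35 ± 0.06). These differences are small enough for scaling to matter, and the ribosomal median was 0.28 with trimmed mean scaling, with 20 members called. Of 21 cell cycle genes 4 (19%) were called higher in HS and 0 higher in RM (median -0.46), and 7 higher in HS without RM 2. Of all rows 25.5% were called, 12.5% higher in RM and 13% higher in HS. Mcm2, which licenses DNA replication, was at 1316, 1034, 998, 1049 and 1049 in HS and 704 to 797 (median 714) in RM (-0.57 ± 0.09, limma adjusted p = 6.4e-04), and Mki67 was not called (-0.61 ± 0.31, limma adjusted p = 0.16). Of 25 heat shock genes 7 (28%) were called, all higher in RM, near the share of all rows called. That count fell to 3 without HS 1 or without HS 5 and to 4 without HS 2, RM 2 or RM 5, and was 12 without RM 1. Hspa8 was called in each of these cases (1.03 ± 0.18, limma adjusted p = 0.0016), and Hspa1b, the inducible member, was not called (0.09 ± 0.92, limma adjusted p = 0.96). Hspa1b has a near-identical neighbour, and its reads may be split with it.

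**Figure D3:**
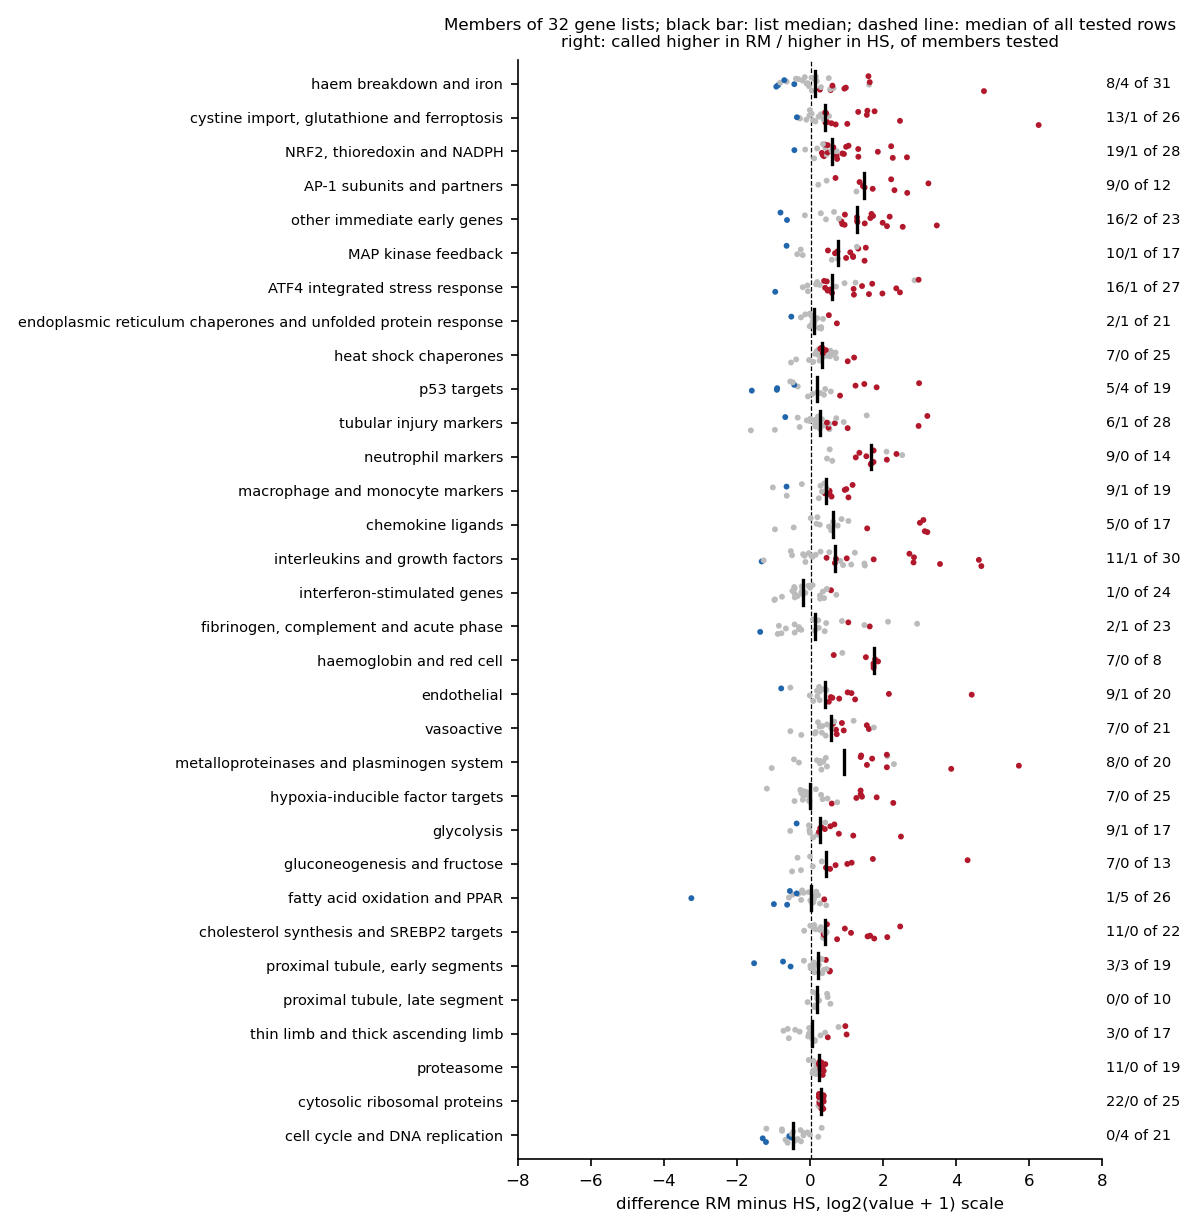
Difference RM minus HS on the log2(value + 1) scale (x axis) of each tested member of 32 gene lists (rows), red where called higher in RM, blue where called higher in HS and grey where not called, with a black bar at the list median and a dashed line at the median of all rows. The counts at the right give members called higher in RM and higher in HS, and the AP-1, immediate early, neutrophil and red cell lists lie farthest right.

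Because names starting with R are rarer in RM than in HS, the comparison was repeated within each letter. All 4065 called rows kept their sign within the libraries named S (5 RM against 2 HS), and 3966 (97.6%) kept it within those named R (1 RM against 3 HS), against 87.5% and 77.3% of all tested rows. The libraries compared within each letter are among those that made the calls, so these shares are a description. With the letter as a covariate 3429 rows were called, and among the S libraries alone 2356. Among the R libraries alone 0 passed in limma, where 2358 had an unadjusted p under 0.05. Slc2a5 differed by 4.45 within S and 3.87 within R, and Plk3 by 3.04 and 3.02. Slc7a11 differed by 7.76 and 2.86 on the log2 scale, the same sign at unequal size. Leaving out 1 library at a time moved its difference over both letters between 6.02 and 6.82.

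**Figure D4:**
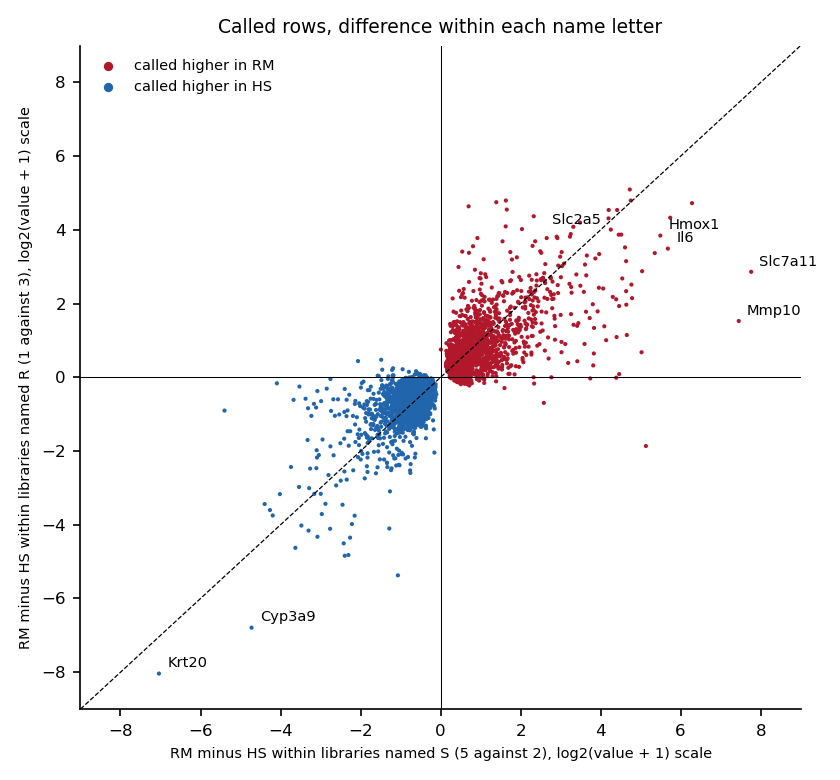
Difference RM minus HS of the 4065 called rows within the libraries named S (x axis) and within those named R (y axis), both on the log2(value + 1) scale, red where called higher in RM and blue where called higher in HS, with a dashed line of equal values. Nearly all rows (97.6%) lie in the lower left or upper right, while Slc7a11 and Mmp10 lie well below the dashed line.

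The libraries labelled RM-HS, read here as the 2 injuries combined, were set beside RM and HS without a test. All RM-HS and Sham libraries have names starting with R, whereas RM 1 alone of the RM libraries does. Their place beside RM therefore cannot be told apart from the name letter. Of the 30 genes with the largest differences, the RM-HS mean lay between the RM and HS means in 28. It did so in 54.6% of the rows called higher in RM and 57.7% of those called higher in HS, beside 32.9% of all tested rows. Rows chosen for a wide gap between RM and HS hold the mean of another group within it more often, so these shares are a description. Slc2a5 was at 3526 to 9780.3 in RM-HS, between the groups, and Krt20 at 25.6 to 123, above all RM and below all HS libraries. Plk3 (3241 to 5775) and Gdf15 (7025 to 16862) had RM-HS libraries that overlapped those of RM. In Sham, Slc2a5 was at 1876 to 3101, above every HS library, and Slc7a9 at 2587 to 6802, a range that began within RM and ended below every HS library.

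Some genes varied widely within both groups. Among 8779 genes with a mean of at least 200 in both groups the median standard deviation within groups was 0.19 (log2), and the 20 with the highest were looked at, a choice made after their values were seen. Lcn2 was at 18242 in RM 3 and 293 in RM 5, and at 14565 in HS 4 and 270.0 in HS 1. Hspa1b was highest in RM 3 (167622) and, of HS, in HS 3 (42556), and ranged from 2872 in RM and 3721 in HS. Fgb, of fibrinogen, was not among these 20. It stood at 1100.0 to 14014 in RM and 4859.7 to 19644 in HS, with HS 3 the highest of all 11. Akr1b8, an aldo-keto reductase, was at 962 to 39171 in RM and 1227 to 17089 in HS, with RM 1 and HS 4 the lowest of their groups. Akr1c2, another, had all-or-none levels in both groups. It stood at 571 to 894 in RM 2 to RM 4, and at 1144 and 749 in HS 4 and HS 5. The other 6 libraries had 8.31 or less.

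**Figure D5:**
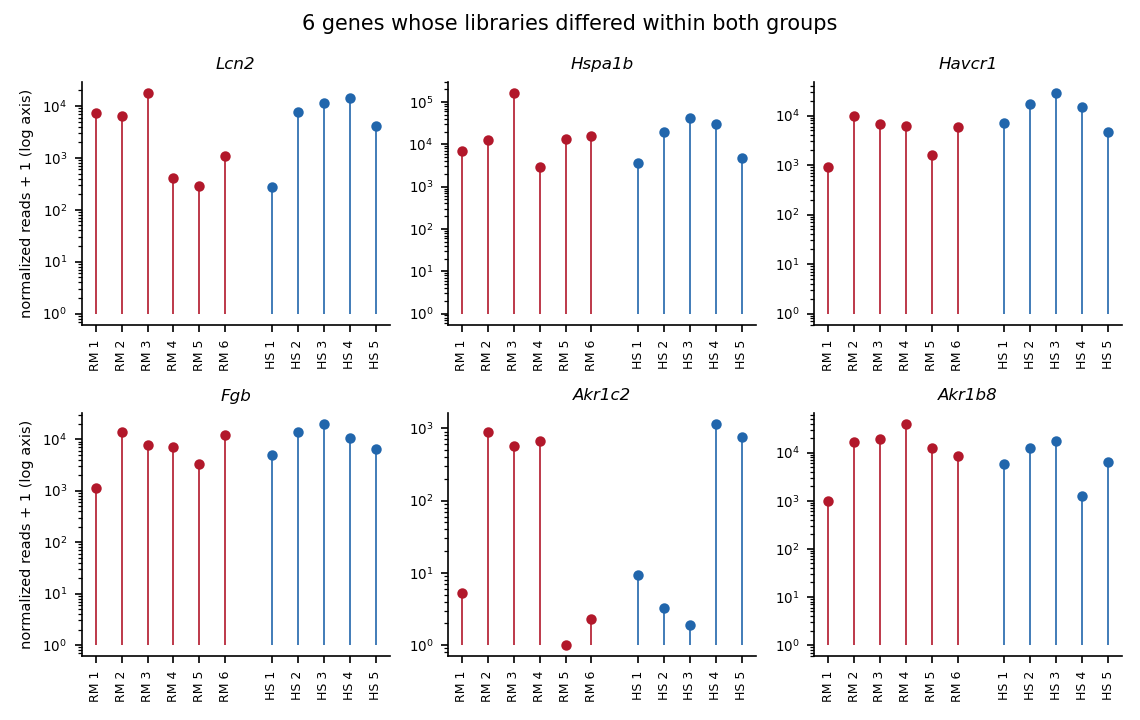
Normalized reads + 1 (y axis, log scale, a scale of its own for each gene) of 6 genes in RM 1 to RM 6 (red) and HS 1 to HS 5 (blue), each stem a library. Akr1c2 falls into high and near-zero libraries in both groups, and RM 3 and HS 3 are the highest of their groups for Hspa1b.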

How the data were processed

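Kidney RNA was sequenced as stranded, paired-end mRNA libraries from 500 ng of total RNA, per the labels' protocols. Reads were aligned to rn6 with STAR, counted per gene with featureCounts of Subread 1.5.0 and normalized with DESeq2, as the submitters' processing notes and the file header state. The values the authors deposited are a signal of normalized read counts, and dividing by each library's step returned whole reads for 100% of values (within 0.1 read).

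Rows that reached 10 normalized reads in 3 or more of the 20 libraries were tested (15954 of 34681, of which 12967 have a symbol, and 14588 rows are 0 everywhere). RM was compared with HS with limma 3.58.1 (R 4.3.3) on log2(value + 1) with a mean trend, over 11 libraries without covariates, and p-values were adjusted by Benjamini and Hochberg over all tested rows. The script was tested on simulated data. Alternatives were edgeR 4.0.16 and DESeq2 1.42.0 on the recovered reads, other scalings, filters, pseudocounts and weights, the name letter, and each library left out. Another was a fit of all 4 groups over the 20 libraries, with RM compared with HS.

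Groups follow the disease label. The gene lists and the genes in them were chosen with earlier results of these data known, so they are no independent support. Genes named are the 15 largest differences in each direction (group mean of 50 or more on the higher side, no overlap), key genes of the lists, and up to 8 called members per list by smallest adjusted p. Akr1b8, Akr1c2, Ccn2, Chac1, Dmrtc1c1, Etv5, Fasn, Gclc, Ireb2, Lpcat3 and Pgd were named after their values were seen. Some genes that the rule names are not reported here.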

Additional observations from a re-analysis of the deposited data

Results flagged for a closer look

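In 34 of 372 groups examined (RM and HS for 186 named genes), the highest or lowest library stood far from the rest of its group by Dixon's test on the log2(value + 1) scale. Chance flags about 1 in 20 groups, and genes measured in the same libraries are not independent. Of the 34, 15 were low values of RM 1, which stood apart on the third principal component as well and comes from a library named R, unlike the other 5 RM libraries. RM 1 was lowest for Slc7a11 (651), Hmox1 (109354), Slc3a2 (14747), Gclm (63182), Txnrd1 (31253), Pgd (7950), Ftl1 (446045), Slc48a1 (4234), Lexm (1053), Mmp10 (8.47), Nrg1 (1447), Psma1 (5803), Slc10a4 (25.4), Spata48 (6.35) and Esm1 (263). For Slc7a11 the other RM libraries were at 4354 to 9529, and for Txnrd1 at 54665 to 72169. Of these 15 genes 14 were called higher in RM, so the low library lay toward HS, and Esm1 was called higher in HS. RM 1 was the highest RM library for Tie1 (2244).

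The other values were scattered over libraries. RM 3 was highest for Selp (2643, against 258 to 556 in the other RM libraries), Hspa5 (136325) and Dusp8 (1893), and lowest for Pck1 (42194). RM 2 was highest for Gclc (216549) and lowest for Plk3 (2815), and RM 4 was lowest for Ccn2 (9680). In HS, HS 2 was highest for Hmox1 (36015, against 2468 to 4966 in the other HS libraries), and HS 3 was lowest for G6pc1 (66387). HS 1 was highest for Gdf15 (1548), Mcm2 (1316) and Psma1 (5515) and lowest for Pgam1 (25171). HS 4 was highest for Dusp1 (5434) and Spata48 (3.92) and lowest for Prdx1 (9749) and Slc5a1 (1095), and HS 5 was highest for Lpcat3 (4163).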

How the results depend on the processing

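No paired analysis was possible because the labels give RM and HS libraries no shared replicate numbers. Over all rows, 4065 calls became 2356 among the libraries named S (1194 higher in RM, 1162 higher in HS) and 0 among those named R (0 and 0), where the single RM library is assumed to vary like HS. The other alternatives stayed within 1.5 times, from 3429 with the name letter as covariate to 5018 with array weights. Leaving out 1 library gave 3151 (without HS 2) to 4237 (without RM 1), with 1495 to 2112 higher in RM and 1623 to 2125 higher in HS. Calls among list members numbered 361, from 264 (S) to 434 (DESeq2), with 0 in the libraries named R and 307 to 385 with 1 library left out. In lists with 0 to 3 calls in a direction, that count moved by up to 3 calls when 1 library was left out. The difference in mitochondrial share, -1.09 percentage points, was 0.408 (exact permutation test, p = 0.762) among the libraries named S, and -2.89 to 0.226 with 1 library left out (0.158 without HS 1 and 0.226 without HS 2). The 166 called genes named kept their sign in every alternative. With fewer libraries 29 lost their call among the S libraries and 166 among the R libraries. In the fit of 4 groups 9 lost it, with limma adjusted p of 0.0504 for Acaa1a, 0.0504 for C1qc, 0.095 for Ccn2, 0.11 for Cubn, 0.087 for Krt18, 0.063 for Lpcat3, 0.059 for Slc34a1, 0.47 for Slc4a4 and 0.11 for Sox9. With the letter as covariate 3 lost it (Bpi 0.077, Klf2 0.064, Phlda3 0.051). Fth1 passed in DESeq2 (adjusted p = 1.9e-04), in edgeR (0.0087), with array weights (0.028) and with the filter of 50 in 3 libraries (0.019) or over 11 libraries (0.033). Akr1b8 passed among the S libraries (2.59, adjusted p = 0.047).

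Genes that were not called reversed as follows, and the cause was not tested. Among the R libraries the differences were -3.47 for Akr1b8, 0.30 for G6pc1, -1.08 for Hspa1b, -0.28 for Hspa5 and 1.37 for Lcn2. Among the S libraries they were -3.95 for Akr1c2 and -0.07 for Lrp2. With the letter as covariate they were -2.44 for Akr1c2 and -0.06 for Hspa1b, and with array weights -0.14 and -0.22. Akr1c2 was -0.10 in DESeq2 and -0.10 in edgeR. Without HS 1 it was -0.27, without HS 2 -0.65, without HS 3 -0.84, without RM 2 -0.69, without RM 3 -0.57 and without RM 4 -0.61. Hspa1b was -0.37 without HS 1, -0.29 without HS 5 and -0.62 without RM 3, up to 0.55 without RM 4. Dmrtc1c1 was -3.04 among the S libraries, -0.81 without HS 2, -0.44 without HS 3, -0.13 without RM 1, -0.05 without RM 2 and -0.08 without RM 6, up to 1.75 without HS 1. Spp1 was -0.01 without RM 3, and Umod -0.02 without HS 2, up to 0.25 without RM 3.

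The group and the name letter are unevenly matched (1 RM and 3 HS libraries named R), so group and letter are partly confounded. Depth was 48.8 to 109.9 M reads per library, and replicates differed by more than sampling noise, so counting error is only part of the spread. A gene not called is not shown to be equal in RM and HS.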

Other observations

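Other genes with wide variation within groups were looked at after their values were seen, and are given as values only. Dmrtc1c1 was high in RM 1, RM 2 and RM 6 (1379.5, 1034 and 1171) and at 12.1 or less in RM 3 to RM 5. In HS it was at 1217, 343 and 556 in HS 1, HS 4 and HS 5, and at 1.8 or less in HS 2 and HS 3. Like Akr1c2 it was present or nearly absent, but in a different set of libraries. Of the 20 genes with the widest spread within groups, 3 were called between RM and HS.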
